A study of Mus musculus with 1 sample.

Results

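The FOS, JUN and EGR immediate early transcription factors were examined in ovarian surface epithelial cells, the mesothelial-type layer that covers the ovary. The group holds 10 genes (Fos, Fosb, Fosl1, Fosl2, Jun, Junb, Jund, Egr1, Egr2 and Egr3), chosen by name, and every probe set of the array that was paired with a single one of these symbols was taken. This gave 16 of 45101 probe sets and 10 of 18193 named genes. The series concerns the tumour suppressor Trp53 in ovarian cancer cells and its design names further genotypes, but the 1 sample analysed here was total RNA from wild-type mice aged 3 months, hybridised to 1 Affymetrix mouse array. The labels do not give the strain, the number of mice pooled, how the cells were collected or whether they were cultured. With 1 array there was no comparison between conditions, no replicate error and no p-value.

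FOS and JUN proteins are basic leucine zipper factors. A FOS protein pairs with a JUN protein to form AP-1, which binds DNA in the control regions of growth, matrix and inflammatory genes, while JUN proteins can also pair with each other or with ATF and MAF relatives. EGR proteins bind GC-rich sites through zinc fingers and are held in check by the NAB corepressors. Many of these genes are switched on within minutes of a growth factor, hormone or stress signal by factors already present in the cell, such as SRF with its ELK partners and CREB. Their mRNAs are short-lived. In the ovary, AP-1 and EGR factors are best known from the response of follicle cells to gonadotropins around ovulation.

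Values are the deposited intensities on a linear scale. They were read against a background limit of 46.5 (5.54 on the log2 scale), the 95th percentile of a background set. This set held 126 probe sets of hair keratin-associated proteins and of smell, pheromone and bitter taste receptors, which are not expected in the ovary, and its median was 13. Affinity varies from one probe set to the next, so members were not ordered by level against each other. Of the mesothelial and simple epithelial markers, those of the labelled cell type, 6 of 6 passed the limit, against 62.8% of all named genes. Krt8 reached 4573, Krt18 3377 and Krt19 4897 on their brightest probe sets. Fibroblast and smooth muscle markers also passed in 5 of 5 cases each, so passing does not single out the labelled cell type. Control probe sets at the 3′ and 5′ ends of Gapdh read 20207 and 21516, and those of Actb read 24792 and 16073, ratios of 0.939 and 1.54.

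Transcripts of 8 of the 10 factors were above background: Fos, Fosl2, Jun, Junb, Jund, Egr1, Egr2 and Egr3. Fosb and Fosl1 were not. Among all 18193 named genes 62.8% passed the same limit. Genes with more probe sets pass more often, and the members have few. Of the 4 members with 1 probe set 3 passed, against 47.3% of such genes on the array, and of the 6 members with 2 probe sets 5 passed, against 71.8%. Many genes of the lists further on have at least 3, and of such genes 86.2% passed. Counted by probe set, 12 of 16 passed, against 55.1% of all named probe sets. A group of 10 genes is small, and these shares differ from the background by a few genes only.

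The members lay at different distances from the limit. Fos, Fosl2, Jun, Jund and Egr1 exceeded 10 times the limit on their brightest probe set, as did 29.1% of all named genes. Junb was above the limit by less, at 356. Egr2 and Egr3 lay just inside the limit, Fosl1, at 46, lay just outside it, and Fosb was deep in the background range. No probe set of the 126 in the background families was as bright as Fos, Junb, Egr1, either probe set of Jun or the brightest of Fosl2 and Jund.

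**Figure D1:**
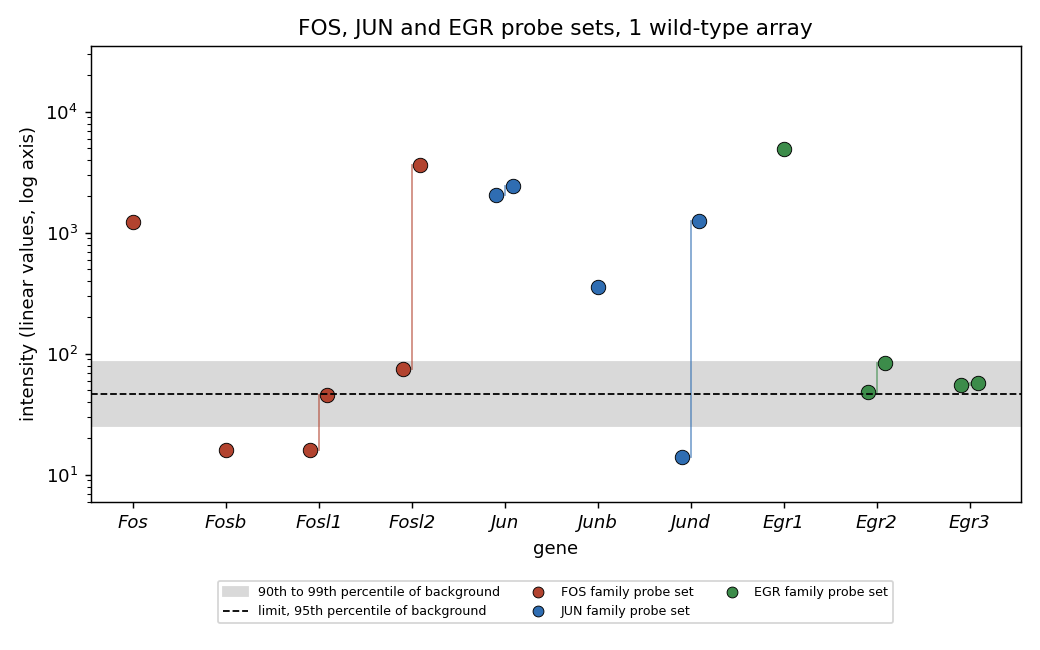
Intensity of every probe set of the 10 genes on a log axis, coloured by family, with lines joining probe sets of 1 gene, the limit of 46.5 dashed and the range from the 90th to the 99th percentile of background in grey. Fos, Jun, Junb and Egr1 lie clear above the grey band with all their probe sets, Egr2 and Egr3 lie in it, and Fosl2 and Jund have probe sets far apart.

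Fos, the founding member of the FOS family and the partner of JUN in the classical AP-1 dimer, had 1 probe set at 1223, or 4.72 above the limit on the log2 scale. Of all probe sets other than controls, 8.06% were as bright. The value is far outside the background range.

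Fosb, a relative of Fos that is likewise induced within minutes, had 1 probe set at 16. This was 1.54 below the limit on the log2 scale, and 52 of the 126 background probe sets were as bright. No signal above background was seen for Fosb.

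Fosl1 encodes FRA1, a FOS protein that lacks the strong activation domain of FOS and is often abundant in migrating and transformed cells. Its 2 probe sets read 16 and 46. The brighter was 0.02 below the limit on the log2 scale, a distance close to the 0.0156 that rounding to a whole number could move it, so its side of the limit is not settled. The lower one was deep in the background range.

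Fosl2 encodes FRA2, the other member of this kind. Its 2 probe sets read 75 and 3631, both above the limit and apart by 5.60 on the log2 scale, a ratio of 48.4. The dim one was designed from the RefSeq mRNA of the gene and the bright one from an expressed sequence tag. Among 4695 genes with 2 probe sets, 5.11% had a difference as large.

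Promoter sequences were taken from RefSeq (GRCm38.p6), as the 250 bases before a transcription start, for the 7 members that the table holds. Fosl1, Egr1 and Egr3 were not searched. Those of Fos and Fosb are shown because the 2 genes stood on opposite sides of the limit. Both are printed 5′ to 3′ on the strand of the gene, at chr12:85473640-85473889 (+) for Fos and chr7:19310046-19310295 (-) for Fosb. Capitals mark exact matches of the searched motifs.
Fos: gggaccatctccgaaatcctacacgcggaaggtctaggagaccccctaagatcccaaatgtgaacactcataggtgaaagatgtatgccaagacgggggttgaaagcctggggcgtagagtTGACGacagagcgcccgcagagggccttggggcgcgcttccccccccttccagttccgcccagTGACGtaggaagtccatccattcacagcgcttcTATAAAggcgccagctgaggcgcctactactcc
Fosb: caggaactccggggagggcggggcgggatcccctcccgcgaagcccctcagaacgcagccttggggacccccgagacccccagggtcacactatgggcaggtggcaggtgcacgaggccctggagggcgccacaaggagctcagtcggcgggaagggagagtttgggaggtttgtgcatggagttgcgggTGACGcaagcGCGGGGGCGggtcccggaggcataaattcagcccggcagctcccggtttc

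The Fos promoter holds the CRE core TGACG at 129 and 66 bases before the start and a TATA box (TATAAA) at 33 bases before it. The Fosb promoter holds TGACG at 60 bases before the start and the EGR motif GCGNGGGCG at 50. Motifs were searched on both strands by exact letters. In the same window of all 32851 promoters, TGACG occurred in 17.8%, TATAAA in 12.4% and GCGNGGGCG in 4.70%. TGACG also lies within the full CRE, TGACGTCA. The EGR motif was found in Fosl2 too, at 79 bases before the start, so 2 of the 7 members with a promoter held it. Both are FOS family genes, but Fos itself held no match. With 1 mismatch allowed, 5 members held it, Jun, Junb and Egr2 included, as did 31.3% of all promoters. The shares take no account of GC content, which was 68.8% for Fosb and 64.4% for Fosl2, against a median of 52.4%. Motif matches are a description of the sequence and do not show binding.

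Jun, the founding member of the JUN family and the main partner of FOS, had probe sets at 2069 and 2430, both above the limit by more than 5 on the log2 scale (5.48 and 5.71). They differed by 0.23 on the log2 scale, and 89.7% of genes with 2 probe sets differed by as much or more. Both were designed from the RefSeq mRNA.

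Junb, a JUN protein with weaker activating power that can restrain JUN, had 1 probe set at 356. It was 2.94 above the limit on the log2 scale, and 21.1% of probe sets were as bright. It was clear of the background range.

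Jund, the JUN protein that is present in most resting cells rather than induced, had probe sets at 14 and 1254. The brighter was designed from the RefSeq mRNA of the gene and the dimmer from an expressed sequence tag. They lay on opposite sides of the limit and 6.48 apart on the log2 scale, a difference matched or exceeded in 2.60% of genes with 2 probe sets. Jund was the only member with probe sets on both sides, as were 32.7% of all genes with 2 probe sets. Fosl2 showed the opposite arrangement of design records, the tag-derived probe set being the bright one.

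**Figure D2:**
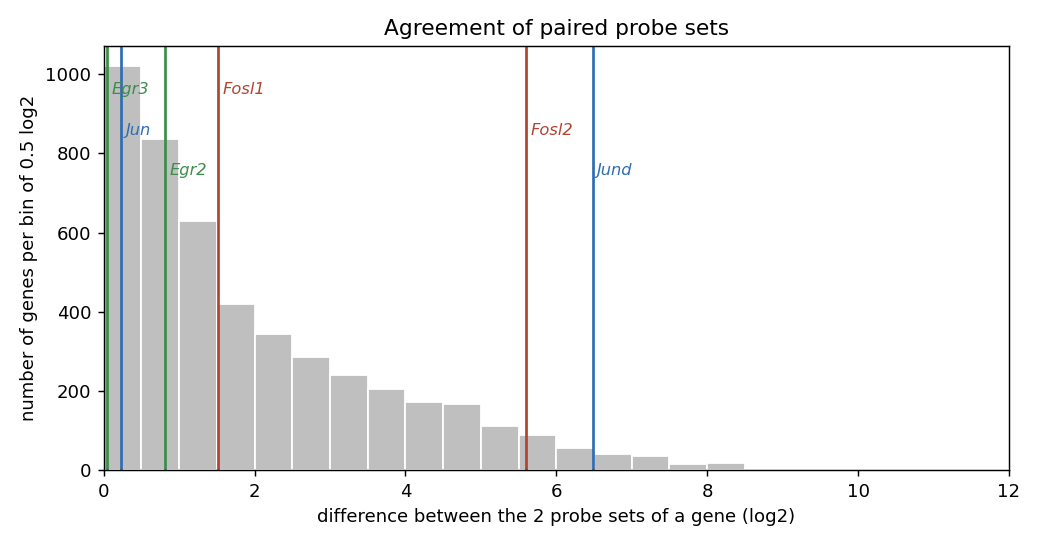
Histogram of the log2 difference between the probe sets of the 4695 genes with 2 of them, in bins of 0.5, with the 6 members of this kind as vertical lines. Jun (0.23), Egr2 (0.81) and Egr3 (0.05) lie below the median of 1.38, Fosl1 (1.52) lies close to it, and Fosl2 (5.60) and Jund (6.48) lie in the tail.

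The Jun promoter is shown because none of the 7 motifs matched it exactly. It is printed on the minus strand, chr4:95052223-95052472 (-), with capitals marking the site that matched the CRE with 1 mismatch.
Jun: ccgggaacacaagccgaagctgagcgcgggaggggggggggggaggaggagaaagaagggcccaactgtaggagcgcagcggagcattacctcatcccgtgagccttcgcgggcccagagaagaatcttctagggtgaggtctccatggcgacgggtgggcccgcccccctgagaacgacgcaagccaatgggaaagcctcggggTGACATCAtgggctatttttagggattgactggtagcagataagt

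This site, TGACATCA, begins 45 bases before the start of Jun. Fos and Egr2 also held a CRE with 1 mismatch allowed, as did 10.6% of all promoters. The AP-1 motif TGACTCA was found by exact letters in none of the 7 members searched and in 4.46% of all promoters. With 1 mismatch allowed it was found in Fosb and Jund, as in 46.5% of all promoters. Junb held TGACG at 106 bases before the start. No motif matched the window of Jund exactly. Its GC content was 47.6%, below the median of 52.4% over all windows, whereas Fos, Fosb, Fosl2, Jun and Junb lay between 58.4% and 68.8%.

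Egr1, a zinc finger factor induced by almost every growth signal and the best-known member of its family, had 1 probe set at 4954. It was 6.74 above the limit on the log2 scale, and 1.77% of probe sets were as bright. Its single probe set has no second reading on this array.

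Egr2, known for its part in myelination and hindbrain patterning, had probe sets at 48 and 84. They were 0.05 and 0.85 above the limit on the log2 scale, and 3 of the 126 background probe sets were as bright as the brighter one. The identifier of the dimmer one marks several transcripts of a gene.

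Egr3, a close relative known from T cells and muscle spindles, had probe sets at 55 and 57. They differed by 0.05 on the log2 scale and were 0.24 and 0.29 above the limit, with 6 and 5 background probe sets as bright. Both readings of Egr3 agreed closely, at a level that some background probe sets reach. Egr2 and Egr3 were therefore above the chosen limit but not clear of the background range.

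The RefSeq table holds 5 start sites for Egr2, and 4 of them have a CArG box, the binding motif of SRF, within 250 bases. Of these, 3 are neighbouring starts that share a single site. The CArG box was found in 1.47% of all promoters, and in 1.62% of all genes with any of their starts counted. By exact letters, no other of the 7 members held it within 250 bases. Sites farther from a start were not searched, and neither were Fosl1, Egr1 and Egr3. The window of 1 of the 3 neighbouring Egr2 starts, chr10:67537619-67537868 (+), is shown because it holds a CArG box and the CRE core together, both in capitals.
Egr2: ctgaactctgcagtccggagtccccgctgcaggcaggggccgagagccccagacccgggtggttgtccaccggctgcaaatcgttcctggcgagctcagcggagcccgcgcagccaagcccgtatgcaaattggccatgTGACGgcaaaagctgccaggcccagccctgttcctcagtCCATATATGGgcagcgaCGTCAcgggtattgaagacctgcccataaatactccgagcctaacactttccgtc

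The CArG box of this window, CCATATATGG, begins 72 bases before the start. TGACG lies 111 bases before it on the gene's strand, and its reverse complement begins 55 bases before it. A further Egr2 start has the CArG box CCTTTTTTGG at 72 bases and 3 ETS core motifs (CCGGAA, in 12.0% of all promoters) at 131, 129 and 48 bases, of which the first pair overlap on opposite strands. With 1 mismatch allowed, 18.6% of all promoters held a CArG match, and Fos held TCTATAAAGG at 35 bases before the start, overlapping its TATA box.

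The closest relatives and partners of the EGR proteins were above the limit in 4 of 4 cases, against 62.8% of all named genes. Egr4, the remaining EGR gene, had 57, near the limit like Egr2 and Egr3. Nab1 and Nab2, the corepressors that bind EGR proteins, reached 1925 and 508. Nab1 had 2 of 3 probe sets above the limit, with 18 on the lowest. Wt1, whose zinc fingers resemble those of EGR and which marks mesothelium and surface epithelium, had 4589. Egr1 and both of its corepressors were thus measured well above background in the same RNA.

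Other basic leucine zipper proteins that can pair with FOS or JUN were above the limit in 10 of 12 cases, against 62.8% of all named genes. The median of their brightest probe sets was 9.08 on the log2 scale, against 7.06 over all named genes. The list has 26 probe sets for 12 genes and the named genes 34945 for 18193, and a brightest reading is higher where there are more. Atf4, a stress response factor, had 3 probe sets from 17 to 4133. Atf2, a partner of JUN at CRE-like sites, had 5, from 11 to 1285. Atf3, a stress-induced relative, had 184 on its single probe set.

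Jdp2, a repressor of AP-1, had 46 and 1203. Maf, a large MAF protein, had 6 of 6 probe sets above the limit, from 89 to 6828. The small MAF proteins Maff, Mafg and Mafk, which lack an activation domain, reached 804, 646 and 455. Batf, a partner of JUN in immune cells, had 74, while its relatives Batf2 and Batf3 had 40 and 23, below the limit. Atf7 had 56 on the brighter of its 2 probe sets.

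Serum response and CREB factors, which act upstream of these genes, were above the limit in 11 of 11 cases, with 41 probe sets among them. Of all named genes 62.8% passed, and of those with 3 or more probe sets 86.2%. By their lowest probe set 3 of 11 were above it, against 39.7% of all named genes. Srf, which binds CArG boxes, had 248 and 375. Its ETS-type partners Elk1 and Elk3 reached 150 and 736. Of MAP kinases and the kinases below them, which activate the ELK proteins and CREB, 6 of 7 measured were above the limit, and 2 of 7 by the lowest probe set. Mapk7 had 137, and Mapk8 and Mapk9, the JNK kinases that phosphorylate JUN, reached 387 and 536. Mapk10, the JNK gene of neural tissue, was the member below the limit, with 12 on its brightest of 3 probe sets (it was named after its value was seen).

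Other immediate early genes were above the limit in 25 of 27 cases, against 62.8% of all named genes. Their median was 9.63 on the log2 scale, against 7.06 over all named genes. The 27 genes have 53 probe sets, and of genes with 2 probe sets 71.8% passed. Ccn1 and Ccn2, secreted matrix-associated proteins, reached 5979 and 9999. Ier3, a survival factor, had 4661, and Ier2 and Ier5 reached 795 and 1382. Most genes of this list were therefore detected, as were the bright members of the FOS, JUN and EGR families.

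Of the phosphatases that turn off MAP kinases, Dusp1 had 1621 and Dusp2, known from immune cells, had 45, below the limit of 46.5. Btg2, an antiproliferative gene, had 2284 and 2976. Zfp36, which directs the decay of AU-rich mRNAs such as that of Fos, had 687, and Socs3, an inhibitor of cytokine signals, had 3 probe sets from 292 to 926. Gadd45b and Gadd45g, stress-response genes, reached 2258 and 963.

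Of the NR4A nuclear receptors, Nr4a1 had 222, Nr4a2 had 4 of 6 probe sets above the limit with 106 on the brightest, and Nr4a3 had 81 on the brightest of 3. Arc, known from synaptic activity, had 43 and with Dusp2 was below the limit. Ptgs2, the inducible enzyme of prostaglandin synthesis, had 69 and 2011. Myc, a growth-promoting factor, had 511, and the KLF factors Klf2, Klf4, Klf6 and Klf10 reached 107, 266, 750 and 585. Like the members, this list held genes far above the limit and genes beside it.

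**Figure D3:**
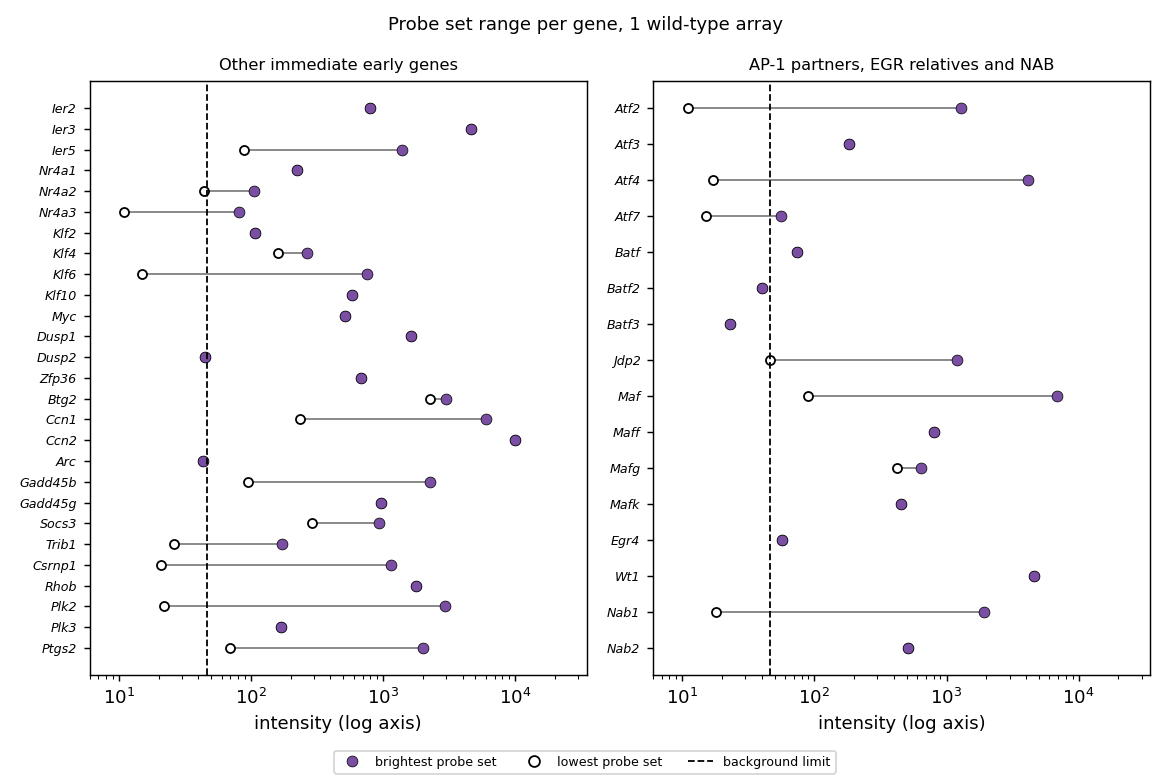
Lowest (open) and brightest (filled) probe set of each gene on a log axis, for 27 other immediate early genes on the left and 16 AP-1 partners, EGR relatives and NAB corepressors on the right, with the limit of 46.5 dashed. Arc and Dusp2 on the left and Batf2 and Batf3 on the right are the genes whose brightest probe set lies below the limit.

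Genes for the turnover of AP-1 proteins and AU-rich mRNAs were above the limit in 10 of 10 cases. Of all named genes 62.8% passed, and of those with 3 or more probe sets 86.2%. Fbxw7 and Cop1, which mark JUN for destruction through ubiquitin ligases, reached 285 and 1575, and Itch, another ligase of JUN proteins, reached 837 on 1 of its 4 probe sets.

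Genes regarded as AP-1 targets were above the limit in 8 of 11 cases, a share near the 62.8% of all named genes. Mmp3 and Mmp13, matrix metalloproteinases with well-known AP-1 sites, had 31 and 13, below the limit, as did Plau, the urokinase plasminogen activator, at 31 and 35. The members clear of the limit included Timp1, an inhibitor of metalloproteinases, at 10935, the chemokine Ccl2 at 2344, and Cd44, a hyaluronan receptor, at 852 on its brightest probe set. Plau, Timp1, Ccl2 and Cd44 were named after their values were seen. Mmp9, a further metalloproteinase, had 60 on its brighter probe set. Genes regarded as EGR targets were above the limit in 7 of 7 cases, against the same 62.8%. Among them were Nab1, Nab2 and Pdgfa, a growth factor for mesenchymal cells, at 975 and 1098. Nab1 and Nab2 are also counted among the EGR relatives and corepressors, so the 2 counts are not separate. Cdk5r1, named after its value was seen, lay beside the limit at 48, on 1 of 4 probe sets. Each of these targets has other regulators, and its level is no measure of AP-1 or EGR activity.

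Markers of other cells and heat shock genes were read in the same RNA. Fibroblast and smooth muscle markers passed the limit in 5 of 5 cases each and macrophage markers in 4 of 5. Of all named genes 62.8% passed, and of those with 2 probe sets 71.8%, so the macrophage count is near these shares. Endothelial markers passed in 1 of 5, lymphocyte markers in 1 of 4 and neutrophil markers in 0 of 4. Adgre1, counted among the macrophage markers that passed, lay beside the limit at 47. Cd8a, the lymphocyte marker that passed, did so on 1 of 5 probe sets, at 67. Pecam1, from the endothelial list, and S100a8 and S100a9, from the neutrophil list, were at background with 14, 13 and 12. Kdr, a growth factor receptor, was the endothelial marker above the limit, at 1813. Col1a1 reached 8290 and Acta2 reached 23141. The members are expressed by many cell types, and their share from each of these was not tested. In bulk RNA, fewer cells of a type and less RNA per cell cannot be told apart. All 9 heat shock genes measured, with 24 probe sets among them, were above the limit. Of all named genes 62.8% passed, and of those with 3 or more probe sets 86.2%. A reading above the limit does not show that a heat shock gene was induced. Hspa1a read 140, Hspa1b 1204 and Hspa8 14497 on their brightest probe sets. Hspa1a and Hspa1b are near-identical copies whose probes may read both. The part of tissue handling in the levels of the immediate early genes was not tested.

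**Figure D4:**
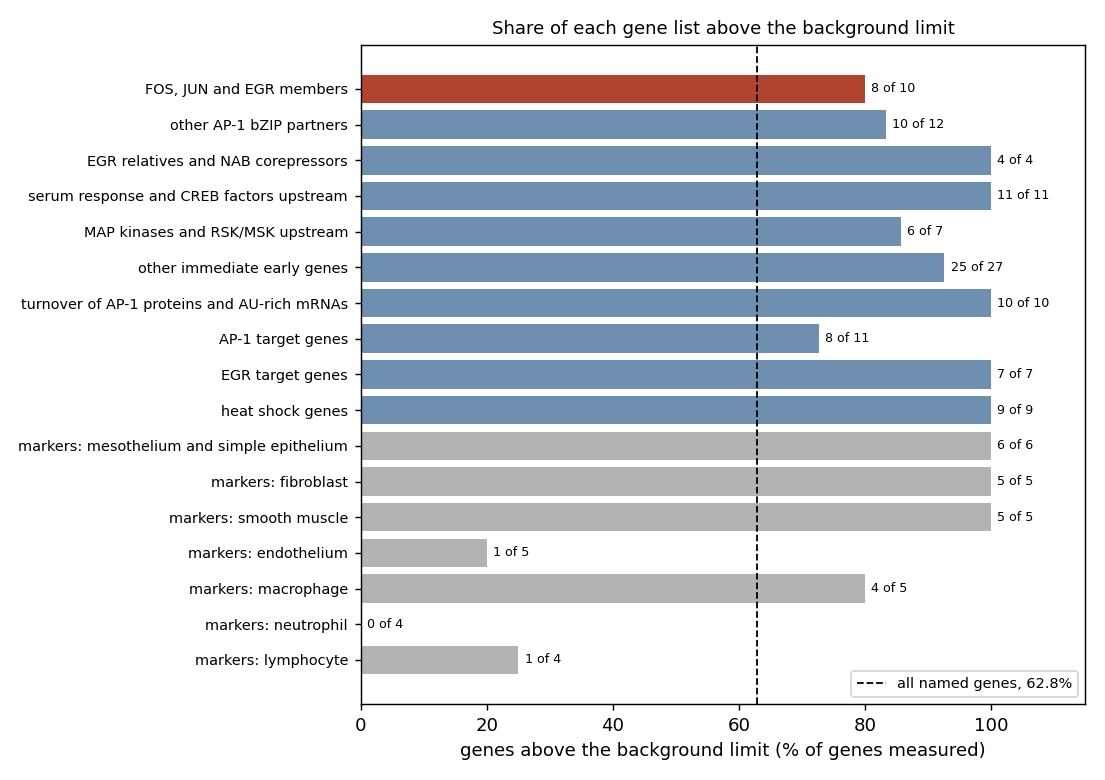
Percentage of measured genes of each list above the limit of 46.5, with counts at the bar ends and the 62.8% of all named genes as a dashed line. The members (8 of 10) lie above that line, as do the other gene lists and the epithelial, fibroblast, smooth muscle and macrophage markers. Endothelial (1 of 5), lymphocyte (1 of 4) and neutrophil (0 of 4) markers lie below it. The line takes no account of probe sets per gene, and of genes with 3 or more 86.2% passed.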

How the data were processed

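From 5 ug of total RNA, cRNA carrying biotin was made and measured on an Affymetrix array, per the labels' protocols. The deposited table holds 1 intensity per probe set, all 45101 of them whole numbers from 6 to 32341. Software named in the submitters' processing notes is affy with RMA, with no version. RMA corrects background, normalizes across arrays and usually returns log2 values. Not given in the sources used here are the arrays normalized together and the step to linear whole numbers. Rounding can move a value by 0.0154 on the log2 scale at the limit.

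Here intensities were put on the log2 scale and joined to the platform's gene table. A total of 34945 probe sets named 1 gene. The 932 that named several, the 9160 that named none and 64 controls were left out of gene counts. A gene was above background where its brightest probe set exceeded the limit. The members and gene lists were chosen with earlier results of these data known, and support nothing by having been chosen. All 10 members may be named, as may any gene of the lists of AP-1 partners, EGR relatives and immediate early genes. Of other lists the first 3 measured members in written order are named, and exceptions are stated or are markers. Of the planned work, identity between proteins was not computed. Some listed genes are not reported here. Motifs (AP-1, CRE, CRE core, EGR, CArG box, TATA and ETS core) were searched in RefSeq promoters. The procedure was tested on simulated data. The alternatives were other limits and backgrounds, the lowest or mean probe set, removal of marked probe sets, and 1 mismatch in motifs. The array has no read depth, and a single one leaves the precision of each level unknown. Tables were computed with pandas 2.3.3 and NumPy 2.4.6 in Python 3.11.15 and drawn with matplotlib 3.10.9.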

Additional observations from a re-analysis of the deposited data

How the results depend on the processing

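The count of members above background stayed within 1.5 times of 8 under all 8 alternatives, and Fos, Fosl2, Jun, Junb and Egr1 were above, and Fosb below, the limit under each of them. The other 4 genes changed sides. Fos, Fosb, Junb and Egr1 have 1 probe set each, so reading the lowest or the mean probe set could not change them. On the log2 scale, Fosl1 lay above the limit, by 0.85 at the 90th percentile of background, by 0.65 with olfactory and vomeronasal receptors as background and by 0.02 without marked probe sets. Egr2 (-0.01) and Egr3 (-0.57) fell below the 99th percentile, and Egr3 also fell below with keratin-associated proteins and taste receptors (-0.33) or genes of other organs (-0.17) as background. Jund was at -1.73 with its lowest probe set. At the 99th percentile 7 of 16 member probe sets were above. By gene, 6 of 10 members were above that limit, against 55.3% of all named genes. When each gene was read by its lowest probe set, 39.7% of all named genes were above, in place of 62.8%. Those above were 7 of 10 members, 6 of 12 AP-1 partners, 3 of 4 EGR relatives and corepressors and 3 of 11 serum response and CREB factors. Of the other lists, 2 of 7 MAP kinases, 19 of 27 other immediate early genes and 6 of 10 turnover genes were above. Also above were 5 of 11 AP-1 targets, 4 of 7 EGR targets and 8 of 9 heat shock genes. With 1 mismatch allowed in the promoters, the members with a match numbered 2 for AP-1, 3 for CRE, 5 for EGR and 2 for CArG, where 46.5%, 10.6%, 31.3% and 18.6% of all promoters matched. The spread between probe sets counted above the limit alone has no value for Fosl1 and Jund.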
